A study of Rattus with 108 samples.

Results

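The 150 genes described here were low in rat muscle 6 hours after a paw incision and high in rat muscle 10 days after an incision with retraction. They were chosen by their measured levels in these groups, among 32623 counted genes. The level of a gene in a group was its mean CPM (counts per 1000000 counts of a library) over 4 libraries, plus 1. In muscle after lateral paw incision (LPI), this level had to be at least 2-fold lower at 6 hours than at 0 day, which 2940 genes met. In muscle after skin/muscle incision and retraction (SMIR), it had to be at least 2-fold higher at 10 days than at 0 day, which 5516 genes met. Of the 1502 genes that met both, the 150 with the highest SMIR ratio of 10 days to 0 day were kept. They are called members below and are numbered by rank, with rank 1 for the highest ratio.

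The study measured RNA of skin, muscle and dorsal root ganglia (DRG, which hold the cell bodies of sensory neurons) in rats. LPI stood for acute and SMIR for chronic pain after surgery, per the series' design text. The groups were 6 hours, 2 days and 10 days after LPI, set against LPI rats at 0 day, and 6 hours, 2 days, 10 days and 32 days after SMIR, set against SMIR rats at 0 day. Each of the 27 groups of model, time and tissue held 4 libraries, 108 in all. These come from 36 rats if no library is a pool of rats, and the labels' extraction protocol mentions RNA pools. Every rat had been perfused with saline, and the skin and muscle were those of the incision, per the labels. Strain, sex, age and any surgery of the 0 day rats are not stated in the labels. The time code 1 in the tables was taken as 6 hours by elimination.

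Wounded muscle and skin are known to pass through overlapping phases. Leukocytes enter from the blood within hours, then fibroblasts, new vessels and, in muscle, dividing satellite cells follow, and collagen matrix is laid down and remodelled later. The deposited tables name genes only by identifier, and the reference used here paired 0 of its 47357 genes with these identifiers. No member could therefore be given a name, a role or a pathway, and no sequence is shown. The members are described by their levels, their timing and where else they were found.

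Total counts per library ran from 19080096 to 41654479 over the muscle and skin tables. To describe the tissue make-up of libraries, lists of tissue-enriched genes were made from the 0 day libraries. Muscle-enriched genes had at least 5 CPM at 0 day in muscle and at least 8 times their level in each other tissue (199 genes). Skin-enriched genes were taken likewise (715 genes). High shares in 0 day libraries of the same tissue are thus largely built in and do not check the labels. All shares use these lists. The muscle-enriched genes held 16.1% to 18.6% of counts in SMIR muscle at 0 day, and 1.03% in rat 1 against 5.48% to 13.4% in the other LPI muscle libraries at 0 day. They held 0.197% to 0.725% in all 4 LPI muscle libraries at 2 days. In SMIR muscle, rat 4 at 6 hours had 8.64%, against 14.7% to 19.4% in the other rats of that time, and rat 3 at 32 days had 5.59%, against 15.2% to 18.9%. Skin-enriched genes held 5.90% of counts in 1 LPI muscle library at 6 hours, 4.99% to 6.86% in 3 at 2 days and 7.11% in 1 at 10 days, against 0.154% to 1.03% in the other 11. In bulk tissue, fewer cells of a type and less RNA per cell cannot be told apart.

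The label "muscle genes" names where the levels were read. Of the 150, 1 was among the 199 muscle-enriched genes, 4 were among the 715 skin-enriched and 14 among the 1035 DRG-enriched genes. These lists were drawn from all 32623 counted genes. Against all of these, the muscle and skin counts were near the share over all genes, and the DRG count was above it. All 150 members, however, had a mean of at least 1 CPM in LPI muscle at 0 day. Only 14432 genes had at least 1 CPM over the LPI muscle table. The shares of the lists among such expressed genes were not counted, so these counts are not read as a trait of the members. The muscle list came from 0 day muscle libraries that the rule also used, where it favours low SMIR levels. In 1 SMIR DRG library of 0 day, that of rat 4, muscle-enriched genes held 8.03% of counts and DRG-enriched genes 3.77%, against 0.0374% to 0.199% and 19.4% to 22.0% in the others of its group. Without it the lists held 255, 708 and 1114 genes, with 1, 4 and 14 members. At 0 day the median member had a mean of 4.22 CPM in SMIR muscle, 27.2 CPM in SMIR skin and 14.8 CPM in SMIR DRG (12.6 CPM without rat 4). In the LPI rats it was 36.1 CPM in muscle, 22.3 CPM in skin and 7.73 CPM in DRG. The rule itself asks for high levels in LPI muscle and low levels in SMIR muscle at 0 day, so that these muscle levels are a description, with no test. The transcript length implied by the deposited FPKM values had a median of 3195 bases over the members, against 2434 bases over 14318 genes of at least 1 CPM in muscle. In SMIR muscle each library's trend of counts with gene length ran from −0.0340 to 0.173 at 10 days, against −0.148 to −0.0997 at 0 day. This trend and time cannot be told apart in the contrast that ranked the members.

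The values that chose the members were as follows, given as a description. In LPI muscle the median member had a ratio of 0.28 at 6 hours to 0 day, while the median of all genes of at least 1 CPM was 0.77. In SMIR muscle the median member had a ratio of 10.6 at 10 days to 0 day, against 1.67 over all such genes. Of all such genes, 19.9% were at least 2-fold lower in LPI muscle at 6 hours and 38.4% at least 2-fold higher in SMIR muscle at 10 days. In LPI muscle at 6 hours, all 4 libraries were below all 4 of 0 day for 133 members, and for 33.8% of all genes. In SMIR muscle at 10 days, all 4 libraries were above all 4 of 0 day for all but 2 members, and for 59.4% of all genes. The last 3 members had SMIR ratios of 7.53, 7.49 and 7.47, and the next 3 genes, just outside, had 7.44, 7.39 and 7.30. Scaling moved these values: with TMM scaling, which corrects library size for a few abundant genes, the all-gene medians were 1.05 at LPI 6 hours and 1.03 at SMIR 10 days, and the median member had ratios of 0.39 and 6.14. With that scaling 111 of the 150 were still at least 2-fold lower at LPI 6 hours, and all 150 at least 2-fold higher at SMIR 10 days.

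The members' summed share of a library's counts is given as a description. Its low values at LPI 6 hours and high values at SMIR 10 days, against 0 day, follow from the choice of members. In LPI muscle the members held 4.09% to 5.74% of counts at 0 day, 1.15% to 1.83% at 6 hours, 3.26% to 6.41% at 2 days and 5.77% to 12.8% at 10 days. In SMIR muscle they held 0.585% to 1.16% at 0 day. At 6 hours they held 0.129%, 0.650%, 0.390% and 1.65% in rats 1 to 4, so that rat 4 was the highest. They held 2.71% to 4.11% at 2 days and 4.67% to 14.4% at 10 days. At 32 days they held 0.799%, 2.43%, 0.371% and 1.06% in rats 1, 3, 4 and 5, so that rat 3 was the highest. The SMIR libraries with the highest member share at 6 hours and at 32 days were those with the lowest muscle-enriched share, whose part in the members' levels was not tested.

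**Figure D1:**
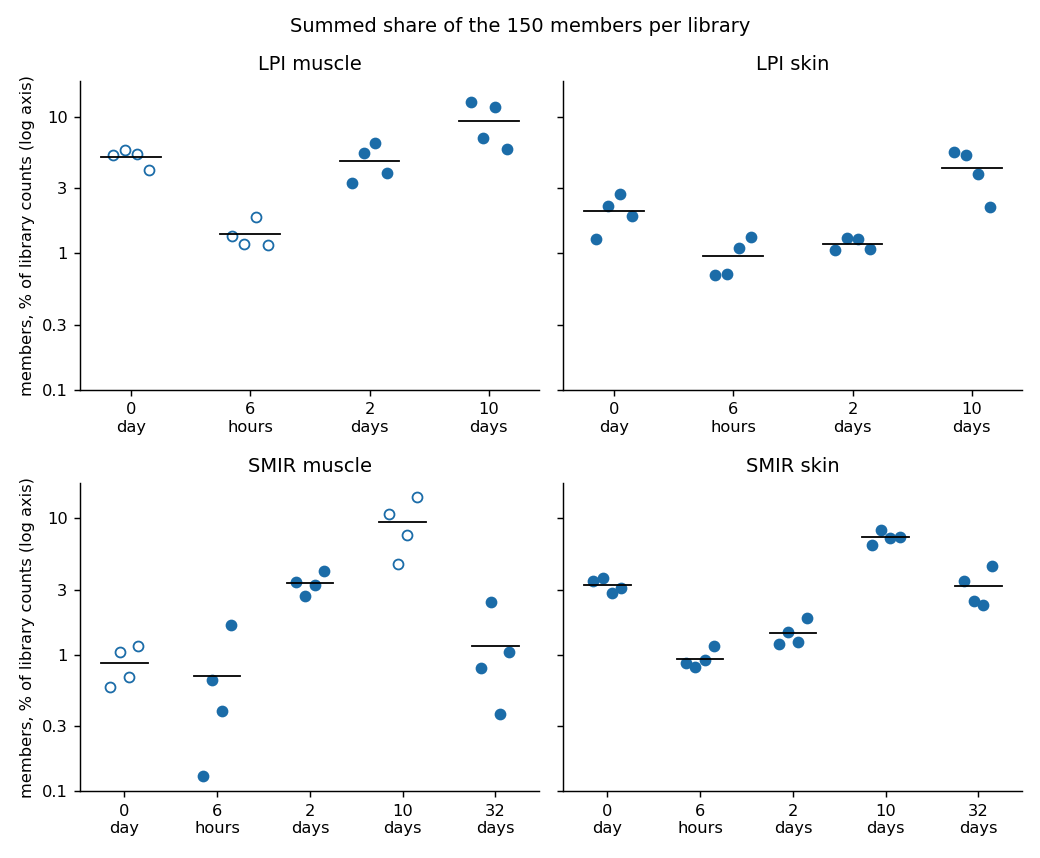
Share of each library's counts held by the 150 members (vertical log axis, percent) at each time in muscle and skin of both models; each point is a library and each line a mean of 4. Open points mark the 4 groups whose values chose the members. The choice did not use skin libraries, though the same rats may have given both tissues. In skin of both models the mean share was lowest at 6 hours and highest at 10 days.

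A few members made up most of this sum. The member of rank 110 was the most abundant in CPM in every muscle group, with a mean of 25549 ± 11518 CPM (SD, n = 4) in SMIR muscle at 10 days and 2794 ± 903 CPM at 0 day. It held 27.4% of the members' sum at 10 days, and the 5 most abundant held 61.3%. Per length, the same member had the highest level at SMIR 10 days, with 5176 FPKM (fragments scaled to gene length and library size), followed by rank 95 with 4173 FPKM. Rank 95 has an implied length of 146 bases, against 4922 bases for rank 110, so that its level per length rests on a short gene model. The median member had 17.9 FPKM at that time and 1.23 FPKM at 0 day. At 10 days 37 members were among the 693 genes of at least 100 FPKM, and at 0 day 8 were among 533.

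At 6 hours after SMIR the median member had a mean of 4.60 CPM in muscle, against 4.22 CPM at 0 day, a group in which the rule asks for low levels. Against 0 day, whose libraries also served to choose the members, the median ratio was 1.14, with 25 members at least 2-fold higher (15.6% of all genes were) and 12 at least 2-fold lower (5.21% of all genes were). At 2 days the median ratio was 4.99 and 134 members were at least 2-fold higher, against 46.3% of all genes. At 32 days it was 1.59, with 50 members at least 2-fold higher, against 9.72% of all genes. With TMM scaling the medians were 0.99, 2.98 and 1.30, with 17, 92 and 29 members at least 2-fold higher. The mean level was highest at 10 days for 111 members and at 2 days for 39. The members were ranked on their 10-day level, which favours that time, and the same counts were not made over all genes. Since the 0 day libraries chose the members, these comparisons were not tested.

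Between 6 hours and 2 days after SMIR, 89 of the 149 members tested were higher at 2 days and 0 were lower, with a median log2 fold change of 2.51 among the 89. Muscle-enriched genes held 3.38% to 9.33% of counts at 2 days, against 8.64% to 19.4% at 6 hours, and DRG-enriched genes at least 0.897% at 2 days and at most 0.565% at 6 hours. The part of these shares in the calls was not tested. Of all 16506 genes tested, 19.4% were higher and 18.5% lower. The share of members called higher was thus 59.7%, and among the 1352 genes that met both folds but ranked after the members it was 61.9%, so that the members did not stand apart from those genes here by this count. The member of rank 13 had 37.4, 36.7, 82.1 and 25.3 CPM at 2 days, against 0.281, 0, 0.0746 and 0 CPM at 6 hours. All 4 libraries of 2 days were far above those of 6 hours, with a log2 fold change of 8.09 ± 0.95 (SE) and an adjusted p of 1.14e-05. The member of rank 114 had 68.1, 212, 284 and 115 CPM at 2 days, against 0, 0.705, 0 and 0.833 CPM at 6 hours, with no overlap and a log2 fold change of 8.11 ± 0.99 (adjusted p = 1.75e-05). Each had 2 libraries of 6 hours at 0 CPM, so that the sizes of these fitted changes depend on the prior count of the fit.

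Many members were lower at 32 than at 2 days after SMIR. By edgeR 60 of 149 members were lower at 32 days and 7 were higher, with a median log2 fold change of −2.73 among the 60. Muscle-enriched genes held 15.2% to 18.9% of counts in 3 libraries of 32 days and 5.59% in rat 3, against 3.38% to 9.33% at 2 days, and their part in these calls was not tested. Of all genes tested, 17.8% were lower and 19.1% higher, and of the 1351 tested genes that ranked after the members, 27.5% were lower. The largest fall among the members called was that of ENSRNOG00000029055 (rank 126). It had 0.139, 0.308, 0.0800 and 0.247 CPM at 32 days, against 34.0, 26.5, 26.3 and 27.4 CPM at 2 days, so that the groups lay far apart. The log2 fold change was −6.52 ± 0.53 (SE) with an adjusted p of 1.39e-06, and it ran from −6.78 to −6.31 when any 1 library of these groups was left out.

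Levels at 32 days against 6 hours were mixed. Of 149 members 28 were higher and 13 lower at 32 days, against 14.5% and 13.9% of all genes. The total of 41 members called was thus near the background, since 28.5% of all genes were called in either direction. Among the genes that ranked after the members 37.5% were higher and 2.00% lower. The count rested on rat 4 at 6 hours, the highest of its group for 126 of the 150 members: without it 63 members were higher and 9 lower. Without both that library and rat 3 at 32 days, the highest of its group for 130 members, 54 were higher and 9 lower. ENSRNOG00000029055 had 0.344, 0.321, 1.12 and 2.82 CPM at 6 hours and was lower at 32 days (log2 fold change −2.58 ± 0.47, adjusted p = 6.44e-04).

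**Figure D2:**
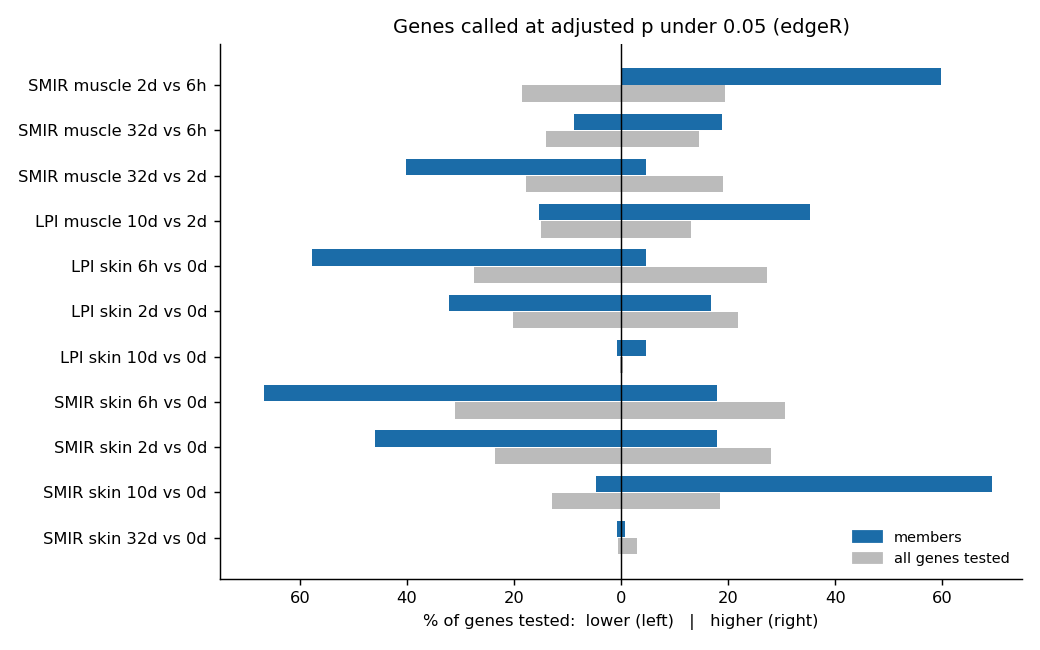
Percent of members tested (blue) and of all genes tested (grey) called higher (right) or lower (left) at an adjusted p under 0.05 in the 11 comparisons whose libraries did not choose the members in that contrast. In SMIR muscle 89 of 149 members were higher and 0 lower at 2 days against 6 hours, and in SMIR skin 104 of 150 were higher and 7 lower at 10 days against 0 day.

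In LPI muscle the members parted into different time courses after 6 hours. Against 0 day the median ratio was 1.02 at 2 days, with 40 members at least 2-fold higher (15.6% of all genes were) and 27 at least 2-fold lower (13.0% were). At 10 days it was 1.52, with 48 members at least 2-fold higher, against 4.57% of all genes, and 3 at least 2-fold lower, against 1.32%. The mean level was lowest at 6 hours for 144 members, and highest at 10 days for 89, at 2 days for 45 and at 0 day for 16. The rule asks for low levels at 6 hours, so that the first count is largely built in. The same counts were not made over all genes. These comparisons share the 0 day libraries with the choice of members and were not tested.

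The direct comparison of 10 days with 2 days in LPI muscle set against each other groups that did not serve that choice. In the fits of both muscle tables, the libraries of that choice also entered the filter, the scaling and the estimate of spread. Of 150 members 53 were higher at 10 days and 23 lower, against 13.0% and 14.9% of all 16246 genes tested. The share of members higher was 35.3%, against 29.2% of the genes that ranked after them. The 53 had a median log2 fold change of 1.80 and the 23 a median of −1.43. The 53 had a median ratio to 0 day of 0.58 at 2 days and 1.98 at 10 days, while the 23 had 2.89 at 2 days and 1.09 at 10 days. The call was made on the same 2-day and 10-day libraries, so these medians describe it and do not add to it. Muscle-enriched genes held 1.69% to 7.42% of counts at 10 days and 0.197% to 0.725% at 2 days, and their part in these calls was not tested. Each library's trend of counts with gene length was at least 0.0953 at 10 days and at most 0.0949 at 2 days, and with it as a covariate edgeR called 43 members, 35 higher and 8 lower. Without the 5 LPI muscle libraries of high skin-enriched share only 1 library is left at 2 days, whose spread is assumed to be that of the other groups. EdgeR then called 0 members, with 37 at an unadjusted p under 0.05, a count that says little of those libraries.

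The largest rise among the members called was that of ENSRNOG00000028344 (rank 97). It had 5.73, 6.33, 12.2 and 2.27 CPM in LPI muscle at 10 days, against 0.333, 0.121, 0.529 and 0.779 CPM at 2 days. The groups did not overlap, and the log2 fold change was 3.93 ± 0.58 (SE) with an adjusted p of 0.00116. In SMIR muscle at 32 days its levels were uneven, with 40.5 CPM in rat 3 against 1.20, 4.64 and 1.63 CPM in the others. It was called higher at 32 days than at 6 hours (log2 fold change 3.70 ± 1.21, adjusted p = 0.0295), but without rat 3 at 32 days the change was 2.12 with an adjusted p of 0.156.

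**Figure D3:**
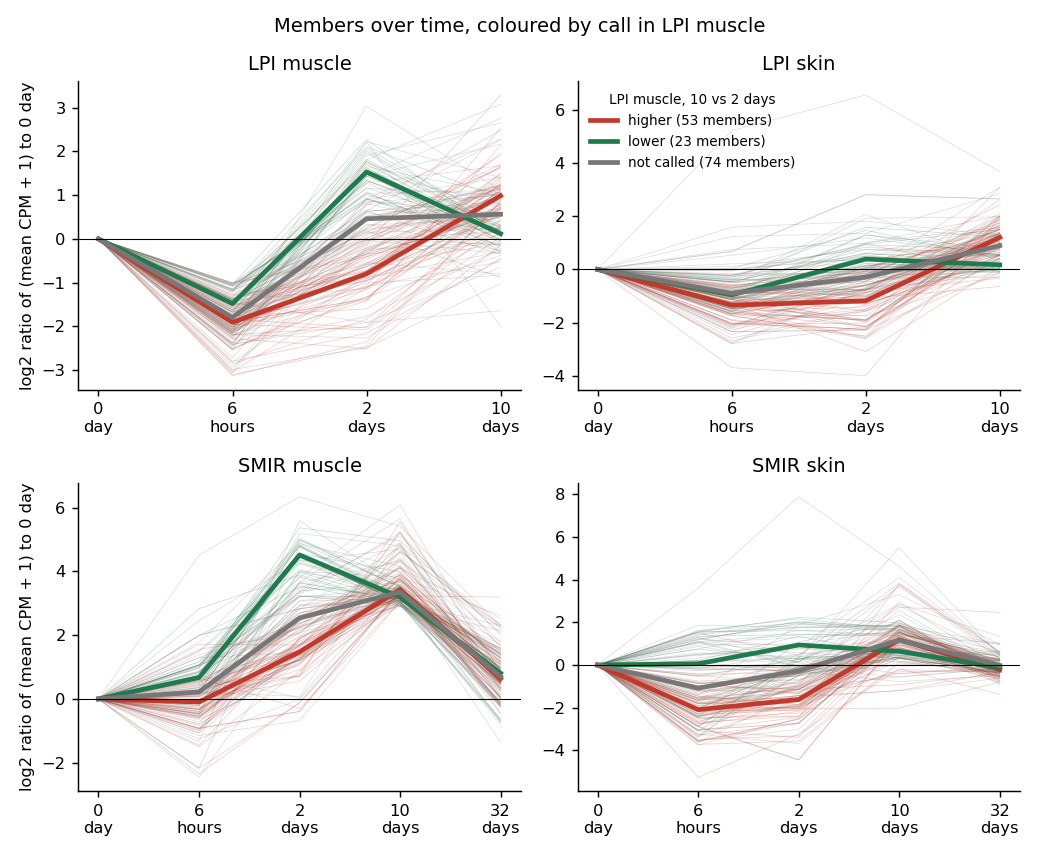
Log2 ratio of group mean CPM plus 1 to that of 0 day for each member (thin lines) in muscle and skin of both models, coloured by the call of LPI muscle at 10 against 2 days; thick lines are medians over 53 members higher, 23 lower and 74 not called. LPI muscle at 6 hours and SMIR muscle at 10 days are fixed by the choice of members. The rule also asks for low SMIR muscle levels at 0 day, which favours high ratios at the other SMIR muscle times. In SMIR muscle at 2 days the median ratio was 22.8 for the 23 lower members and 2.78 for the 53 higher members. Over all genes of at least 1 CPM it was 1.89.

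The split in LPI muscle could be read in the SMIR rats, whose libraries are separate. All 23 members lower at 10 days than at 2 days in LPI muscle were also lower at 32 days than at 2 days in SMIR muscle. Of all 2393 genes that were lower in LPI muscle, 62.5% were lower in that SMIR comparison, and genes lower in both made up 9.50% of the 15740 tested in both. Of the 53 members higher in LPI muscle, 5 were higher, 7 lower and 41 not called in the SMIR comparison, whereas of all 2086 genes higher in LPI muscle 48.7% were higher and 1.15% lower. Between 6 hours and 2 days after SMIR, 21 of the 23 were higher at 2 days (91.3%, against 34.9% of all genes lower in LPI muscle), and 22 of the 53 were (41.5%, against 14.3% of all genes higher in LPI muscle).

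**Figure D4:**
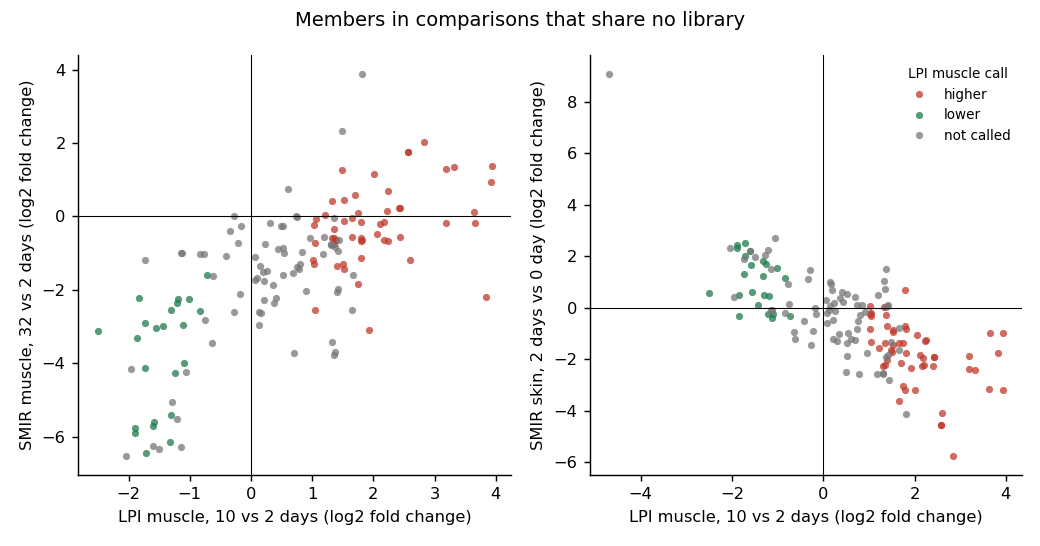
Log2 fold change of each member in LPI muscle at 10 against 2 days (horizontal axis) and in SMIR muscle at 32 against 2 days (left) or SMIR skin at 2 days against 0 day (right), in comparisons that share no library. The 23 members lower in LPI muscle (green) were all called lower on the left, against 62.5% of all genes with that LPI call. Of the 53 higher members (red) 43 were called lower on the right, against 66.6% of all genes with that LPI call. The number of calls on the right depended on each library's trend of counts with gene length.

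In skin, whose libraries the choice of members did not use, most members were lower at 6 hours in both models. The same rats may have given the muscle libraries that chose the members. The skin comparisons with 0 day may therefore not be independent of that choice. After LPI 86 of 149 members tested were lower at 6 hours than at 0 day and 7 higher, against 27.5% and 27.2% of all genes. The median log2 fold change was −1.15 over the members and −0.04 over all genes. After SMIR 100 of 150 were lower and 27 higher, against 31.0% and 30.6% of all genes, with medians of −1.69 and −0.01. After LPI 57.7% of the members were lower, against 68.3% of the genes that ranked after them, and after SMIR 66.7% of the members were, against 63.4% of those genes. Of the 86 members lower after LPI, 57 were lower after SMIR (66.3%, against 54.4% of all genes lower after LPI) and 16 were higher (18.6%, against 17.3% of those genes). The length trend, a library's rank correlation across genes of its deviation from the table's mean with gene length, was lower at 6 hours without overlap. It ran from −0.131 to −0.0308 at 6 hours and from 0.0600 to 0.129 at 0 day in LPI skin, and from 0.00267 to 0.0741 at 6 hours and from 0.0859 to 0.135 at 0 day in SMIR skin. Skin-enriched genes held 13.1% to 14.9% of counts at 6 hours, against 10.5% to 11.7% at 0 day, in SMIR skin, and the part of this share in the calls was not tested. With the length trend as a covariate 100 members were lower in each model, with 4 higher after LPI and 23 after SMIR.

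At 2 days the members in skin were divided. After LPI 48 of 149 were lower and 25 higher than at 0 day, against 20.2% and 21.8% of all genes. After SMIR 69 of 150 were lower and 27 higher, against 23.5% and 28.0%. Of the 48 members lower after LPI 37 were lower after SMIR as well (77.1%, against 54.0% of all genes lower after LPI). Of the 25 higher after LPI 13 were higher after SMIR (52.0%, against 65.8% of all genes higher after LPI). The 53 members higher in LPI muscle at 10 than at 2 days included 43 that were lower in SMIR skin at 2 days and 0 that were higher (81.1% lower, against 66.6% of all genes higher in LPI muscle). The 23 lower in LPI muscle included 13 that were higher in SMIR skin and 0 that were lower (56.5% higher, against 71.1% of all genes lower in LPI muscle). The members' share was thus above that of all genes with the same LPI call in the first case and below it in the second. These differences were not tested.

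The number of calls in SMIR skin at 2 days depended on the length trend. It ran from −0.304 to −0.175 in the 4 libraries of 2 days, against 0.0859 to 0.135 at 0 day, so that this trend and time cannot be told apart there. With the trend as a covariate 10 members were called, 2 higher and 8 lower. In LPI skin it ran from −0.213 to −0.0807 at 2 days, against 0.0600 to 0.129 at 0 day, again without overlap, and with it as a covariate 17 members were higher and 42 lower. Skin-enriched genes held at least 14.5% of counts in SMIR skin at 2 days and at most 11.7% at 0 day, and their part was not tested. The largest fall among members called was that of ENSRNOG00000045683 (rank 71), with 1.37, 4.46, 1.41 and 9.55 CPM at 2 days, against 124, 113, 95.1 and 119 CPM at 0 day in SMIR skin. The groups lay far apart, with a log2 fold change of −4.56 ± 0.51 (SE) and an adjusted p of 2.72e-06. With the length trend as a covariate it was −4.32 with an adjusted p of 0.0316. In LPI skin it had 2.58, 5.83, 5.18 and 2.70 CPM at 2 days, against 13.5, 24.2, 33.6 and 21.4 CPM at 0 day, again with no overlap (log2 fold change −2.40 ± 0.40, adjusted p = 2.69e-04). The member of rank 72 had nearly the same counts in all 108 libraries, so that its reads may be those of rank 71 and the pair is not 2 independent observations.

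The largest rise among members called in SMIR skin at 2 days was that of rank 47; in LPI skin those of ranks 93 and 91, with log2 fold changes of 10.36 and 10.34, were larger. It had 397, 446, 747 and 264 CPM in SMIR skin at 2 days, against 1.29, 1.55, 0.477 and 0.535 CPM at 0 day (log2 fold change 9.10 ± 1.06, adjusted p = 5.09e-06). In LPI skin it had 181, 184, 75.8 and 30.3 CPM at 2 days, against 0.102, 0.214, 0.242 and 0.472 CPM at 0 day (log2 fold change 8.99 ± 1.27, adjusted p = 9.08e-05). Both skins were thus high in all 4 libraries at 2 days. In muscle it came and went between rats: at LPI 2 days it had 157, 63.1 and 51.5 CPM in the 3 rats of high skin-enriched share, against 4.72 CPM in the other rat. At SMIR 10 days it had 45.8 CPM in rat 3 and 1.32, 0 and 0.0945 CPM in the others, so that its place among the members rested on 1 library. It had no count in any of the 4 SMIR muscle libraries at 0 day, and it passed the filter on low counts in the LPI muscle and both skin tables but not in SMIR muscle.

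At 10 days after SMIR most members were higher in skin than at 0 day. After SMIR 104 of 150 were higher and 7 lower, with a median log2 fold change of 1.22, against 18.5% and 12.9% of all genes. The share of members higher was 69.3%, and that of the genes ranked after them was 25.4%. After LPI 7 of 149 were higher and 1 lower, against 0.323% and 0.255% of all genes. The median log2 fold change over the members was 0.94, against 0.02 over all genes. Skin-enriched genes held 21.2% to 25.5% of counts in LPI skin at 10 days, against 25.8% to 34.5% at 0 day, and their part was not tested. Rat 7 at LPI 10 days had the lowest level of its group for 108 of the 150 members, and without it 51 members were higher and 2 lower. Leaving out rat 3 at 0 day gave 13 higher and 1 lower. Leaving out any other library of 0 day, or rat 5 or 6 at 10 days, gave 0 calls by edgeR, with 61 to 79 members at an unadjusted p under 0.05, and DESeq2 called 49 members on all libraries.

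ENSRNOG00000004578, which has rank 1 and was chosen for its SMIR muscle ratio of 67.9, shows this in skin. It had 178, 235, 207 and 230 CPM in SMIR skin at 10 days, against 16.1, 14.3, 10.5 and 19.1 CPM at 0 day, with no overlap (log2 fold change 3.85 ± 0.55, adjusted p = 1.06e-04). At 6 hours it had 0.464, 0.687, 0.943 and 2.57 CPM, lower than every 0 day library (log2 fold change −3.57 ± 0.59, adjusted p = 5.48e-05). In LPI skin at 10 days it had 138, 99.0, 79.7 and 4.68 CPM, the last in rat 7, against 3.20, 10.6, 11.1 and 9.22 CPM at 0 day. That change did not pass the test (log2 fold change 3.12 ± 0.75, adjusted p = 0.0685). In muscle, as a description, its mean was 196 ± 68.2 CPM at SMIR 10 days and 1.91 ± 0.810 CPM at 0 day (SD, n = 4 each). It was 8.38 ± 3.32 CPM at LPI 6 hours and 39.8 ± 8.93 CPM at 0 day.

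At 32 days after SMIR few members differed from 0 day in skin. By edgeR 1 member was higher and 1 lower of 150, against 3.03% and 0.525% of all genes. The median log2 fold change over the members was −0.00 and the members held 2.34% to 4.47% of counts, against 2.86% to 3.63% at 0 day. DESeq2 called 7 members, and the count ran from 0 to 8 when any 1 library was left out (8 without rat 3 at 32 days). A p that misses the threshold does not show that levels were the same.

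**Figure D5:**
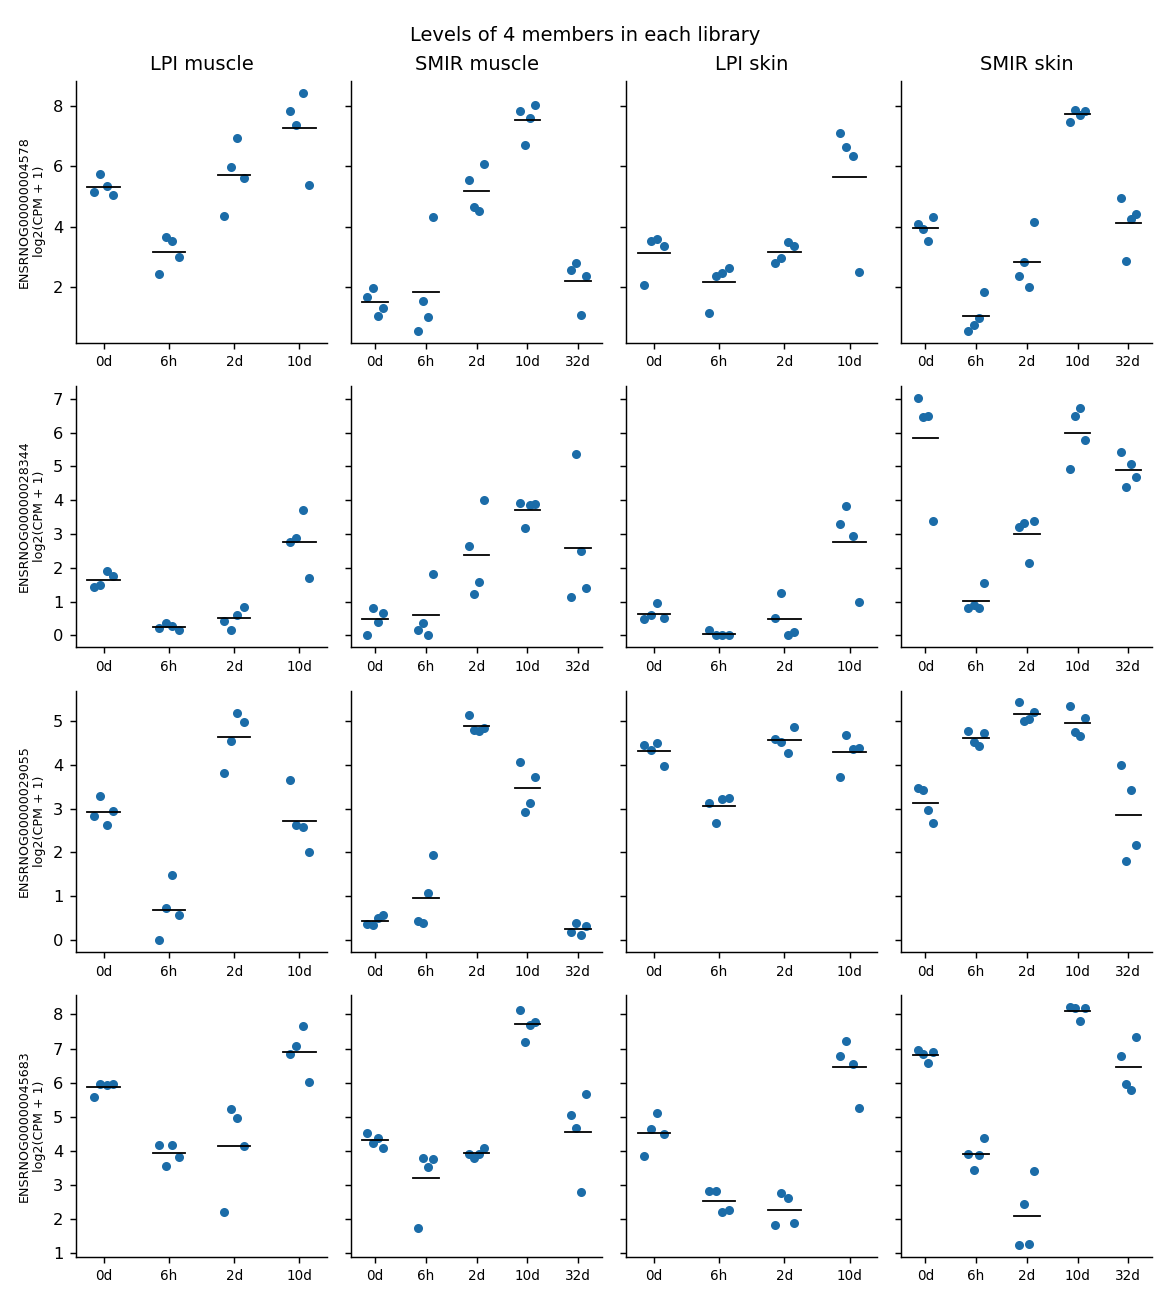
Levels of 4 members in every library of muscle and skin, as log2 of CPM plus 1, by time after surgery (0d, 6h, 2d, 10d and 32d); points are libraries and lines are means of 4. In SMIR skin ENSRNOG00000004578 had 178 to 235 CPM at 10 days and 10.5 to 19.1 CPM at 0 day, while ENSRNOG00000045683 had 1.37 to 9.55 CPM at 2 days and 95.1 to 124 CPM at 0 day.

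The 4 members named by identifier differed in their times. ENSRNOG00000029055 had its highest mean at 2 days in both muscles, 28.5 ± 3.68 CPM after SMIR and 25.2 ± 9.68 CPM after LPI (SD, n = 4 each). In SMIR skin it was higher than the 7.99 ± 2.30 CPM of 0 day at each of 6 hours, 2 days and 10 days, with means of 23.4 ± 2.70, 35.0 ± 4.96 and 30.6 ± 6.92 CPM (adjusted p = 0.00148, 1.41e-04 and 0.00142). In LPI skin at 6 hours it had 7.45 ± 1.45 CPM, against 19.1 ± 3.13 CPM at 0 day, and was lower (log2 fold change −1.16 ± 0.19, adjusted p = 9.65e-05). ENSRNOG00000045683 had its highest mean at 10 days in all 4 time courses, with 213 ± 55.3 CPM in SMIR muscle, 128 ± 56.5 CPM in LPI muscle, 275 ± 34.1 CPM in SMIR skin and 96.3 ± 45.7 CPM in LPI skin. ENSRNOG00000028344 had its highest mean in SMIR skin at 0 day, 79.1 ± 50.4 CPM, with 130, 87.3, 89.3 and 9.56 CPM in rats 1 to 4. At 6 hours it had 0.749, 0.851, 0.768 and 1.93 CPM there, below every 0 day library (log2 fold change −6.08 ± 0.72, adjusted p = 1.82e-06).

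Some members were not independent of each other or of single libraries. Ranks 71 and 72, 77 and 80, and 91 and 93 had CPM values with median ratios of 0.999, 0.973 and 1.00 and correlations over 0.999 across all 108 libraries, so that these 6 members carry the values of 3. Ranks 52 and 57, 61 and 139, 63 and 77, 63 and 80, and 95 and 110 also correlated over 0.99. Their median CPM ratios ran from 0.0226 (ranks 95 and 110) to 2.40 (ranks 63 and 77). The labels do not state how reads shared by near-identical genes were counted. The member of rank 4 was at 0 in 63 of the 108 libraries and between 15.6 and 118 CPM in the others of SMIR muscle. At SMIR 10 days it had 118, 0, 0 and 48.1 CPM in rats 3 to 6, so that its ratio rested on 2 libraries. In SMIR muscle at 10 days rat 4 was the lowest of its group for 137 members.

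The order of rats was read across tissues by the number in the tables' column names. The rat with the highest member share in muscle was also the highest in skin in 3 of 9 groups of model and time, and the lowest in muscle was the lowest in skin in 3 of 9. With 4 rats per group some matches arise by chance, and these counts were not tested. In DRG the members held 1.88% to 2.63% of counts over all LPI DRG libraries and 1.33% to 2.35% over all SMIR ones, where the lowest was rat 4 of 0 day and the next 1.66%. At LPI 2 days 34 members were at least 2-fold higher than at 0 day, against 1.65% of all genes, and all 4 libraries were above all 4 of 0 day for 46, against 19.2% of all genes. The length trend ran from 0.331 to 0.433 in LPI DRG at 2 days, against −0.536 to 0.139 at 0 day, so that it and time cannot be told apart there. After SMIR 30 members were at least 2-fold lower in DRG at 32 days than at 0 day, against 3.57% of all genes, but all 4 libraries were below all 4 of 0 day for 3, against 0.506% of all genes. Without the library of rat 4 at 0 day, 21 members were at least 2-fold lower, against 1.39% of all genes. The DRG came from different spinal levels in the models, per the labels, and no test was made on them.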

How the data were processed

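Every model and tissue has a count table deposited by the authors, with raw reads per gene. The authors also deposited FPKM values (fragments scaled to gene length and library size), which served for levels per length and for the implied length. Per the submitters' processing notes, FastQC 0.11.2, STAR and StringTie were used, and both rn6 and hg38 appear as builds, with no role given. How reads were counted, and on which annotation, is not given in the sources used here. Libraries were strand-specific, per the labels' protocols. Columns could be matched to groups but not to individual labelled samples, so the rat number of the column header names each library; 0 columns were left unassigned. The labels' extraction protocol mentions RNA pools, so p-values measure the spread between libraries, whether these are rats or pools. The members, the comparisons and the lists were chosen with earlier results of these data known.

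CPM is a gene's count per 1000000 counts of its library. The test was edgeR's quasi-likelihood test (version 4.0.16, R 4.3.3, two-sided) after filterByExpr and TMM scaling, with robust dispersion estimates, for each model and tissue over all its times, without a block or covariate. Genes with a Benjamini-Hochberg adjusted p under 0.05 over all genes tested are called higher or lower. The SE is the log2 fold change divided by the square root of the test's F. The test was checked on simulated data. Contrasts that chose the members, and others that share their libraries, were not tested. Backgrounds for ratios are genes of at least 1 CPM over the table. The alternatives were RLE scaling, no filter on low counts, DESeq2 1.42.0, a fit of the compared groups alone, a replicate block, each library left out, and, added after seeing the data, the gene-length trend (the rank correlation across genes of a library's deviation from its table's mean with log2 length) as a covariate and sets of libraries left out. Without gene names, neither the 24 lists of 390 gene symbols nor the naming rule could be used (the rule took the highest ratios and levels, the largest changes in given comparisons and the list members). The 4 identifiers printed are the first by that rule for the SMIR muscle ratio, LPI muscle 10 against 2 days (largest rise), SMIR muscle 32 against 2 days and SMIR skin 2 days against 0 day (largest falls); members given by rank alone were chosen after their values were seen.

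Some or all rat numbers recur between times of a model, where they mark different rats, so the numbers were not taken to pair libraries. As a check, deviations of same-numbered libraries from their group means correlated from −0.591 to 0.437. No comparison had every correlation over 0.1 with 3 or more pairs.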

Additional observations from a re-analysis of the deposited data

Results flagged for a closer look

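Libraries that stood apart from the other 3 of their group by Dixon's test were looked for in the members' summed share and in the CPM of the 4 identifiers, over 99 groups with any spread, of which 10 were flagged; chance flags about 1 in 20. The members' share was 2.63% in rat 5 of LPI DRG at 2 days, against 2.08% to 2.12% in the others. ENSRNOG00000004578 had 18.9 CPM in rat 4 of SMIR muscle at 6 hours, against 0.469 to 1.89 CPM. ENSRNOG00000045683 had 47.2 CPM in rat 1 of LPI muscle at 0 day, against 60.0 to 61.4 CPM, and 224 CPM in rat 5 of SMIR skin at 10 days, against 289 to 296 CPM. ENSRNOG00000029055 had 34.0 CPM in rat 1 of SMIR muscle at 2 days, against 26.3 to 27.4 CPM.

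ENSRNOG00000028344 stood apart in 5 groups. It had 0.114 CPM in rat 2 of LPI skin at 6 hours, against 0 in the others, and 1.93 CPM in rat 4 of SMIR skin at 6 hours, against 0.749 to 0.851 CPM. In SMIR muscle it had 2.55 CPM in rat 4 at 6 hours, against 0 to 0.289 CPM, and 8.13 CPM in rat 4 at 10 days, against 13.4 to 14.0 CPM. At 32 days it had 40.5 CPM in rat 3 of SMIR muscle, against 1.20 to 4.64 CPM. Rat 4 at 6 hours and rat 3 at 32 days were also the SMIR muscle libraries of low muscle-enriched share, whose part in these values was not tested.

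The models moved in opposite directions, with no overlap of libraries, in 2 cases, and the difference between models was not tested. ENSRNOG00000028344 had a mean of 5.96 CPM in SMIR muscle at 2 days, above every 0 day library, while all LPI muscle libraries of 2 days were below those of 0 day. Both 0 day muscle groups served to choose the members, and the rule asks for low levels in SMIR and high levels in LPI there, so that this pair of directions is favoured by the choice. ENSRNOG00000029055 had a mean of 23.4 CPM in SMIR skin at 6 hours, above every 0 day library, while all LPI skin libraries of 6 hours were below those of 0 day.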

How the results depend on the processing

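Reversals were looked for in the balance of higher against lower calls of each count, and in the direction of named and ranked members called. None was found there under any alternative run. The balance could not reverse for SMIR skin at 32 days, with 1 member higher and 1 lower. Directions of the other members were not compared between runs. Of the alternatives for counts, 144 stayed within 1.5 times the value reported and 34 moved; for named and ranked members, 669 kept their side of the threshold and 77 lost significance. SMIR muscle at 32 days against 6 hours (41 members called) gave 26 with the replicate block, 77 with the length trend, 12 with the compared groups alone and 63 without both libraries of low muscle-enriched share. LPI muscle at 10 against 2 days (76) gave 0 with the replicate block by edgeR (85 at an unadjusted p under 0.05), 43 with the length trend and 0 without the 5 libraries of high skin-enriched share (37 at an unadjusted p under 0.05), where the lone library left at 2 days is assumed to vary like the other groups, so that the 0 says little of those libraries. LPI skin at 10 days (8) gave 4 with no filter, 49 with DESeq2 and 2 with the compared groups alone. SMIR skin at 2 days (96) gave 10 with the length trend. SMIR skin at 32 days (2) gave 1 with no filter, 7 with DESeq2, and 0 with the replicate block, the length trend or the compared groups alone (21, 15 and 24 at an unadjusted p under 0.05). The cause of these moves was not tested. Leaving out each library in turn gave 73 to 116 calls for SMIR muscle at 2 days against 6 hours, 33 to 72 at 32 days against 6 hours, 56 to 76 at 32 against 2 days and 54 to 81 for LPI muscle at 10 against 2 days. It gave 81 to 104, 62 to 71 and 0 to 53 for LPI skin at 6 hours, 2 days and 10 days, and 121 to 128, 91 to 103, 97 to 105 and 0 to 8 for SMIR skin at 6 hours, 2, 10 and 32 days; at 32 days 14 to 29 members had an unadjusted p under 0.05. The genes meeting both folds (1502) were 2443 with 0.1 CPM added, 734 with 5 CPM added, 468 with TMM scaling and 1391 to 1629 with 1 library left out. Of the 150 members 80, 95 and 111 were still among the top 150 under the first 3 of these. The replicate block changed the called counts of no other comparison by over 1.5 times; rat numbers were not taken as pairs, since they mark different rats at different times. Depth limits the members of low level: 38 of the 150 had under 1 CPM in SMIR muscle at 0 day.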
